A study of Mus musculus with 14 samples.

Results

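Interferon-stimulated genes were followed by spatial transcriptomics through 14 sections of mouse blood-forming tissue. The set held 9 genes chosen by name (Isg15, Ifit1, Ifit3, Irf7, Oasl2, Rsad2, Usp18, Bst2 and Rtp4) out of 32589 genes in the table of one set of sections and 19465 in the other, where 8 of the 9 were measured and Isg15 was not analysed. The first set was 6 sections from purchased wild-type C57BL/6 mice, each the only section of its kind: fetal liver at E13.5 and at E14.5, leg bone marrow at P8, at 89 weeks and at 6 months after decalcification in 0.5 M EDTA for 5 days, and adult spleen. The second set was 8 sections from a cross of mice carrying a C1qa knockout allele, with E14.5 fetal livers (2 wild type, 2 knockout, numbered 2 and 4, each number a litter of 1 heterozygous mother) and 2 wild-type and 2 knockout spleens (numbers 1 and 2) from mice aged 3 months per the labels. C1qa encodes a chain of the complement protein C1q, and the allele is constitutive, so every cell of a knockout lacked it. All tissues were embedded in paraffin, most after fixation in formalin. The study describes its aged marrow as fixed in paraformaldehyde, frozen in gelatin, cryosectioned and freed of bone before that. The 89-week section is the aged marrow here. With 2 sections a group, p-values measure only the spread between these sections, part of which may be technical.

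Interferons are secreted when cells sense foreign or misplaced nucleic acid. Type I interferons bind a receptor that activates the kinases Jak1 and Tyk2. A complex that includes Stat2 and Irf9 then enters the nucleus and switches on a large set of interferon-stimulated genes through a short promoter element. Many of the products block virus replication. In blood-forming tissue a low level of the same program is present without infection, and macrophages and dendritic cells are common sources and responders.

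The kit measured RNA with gene-specific probes, counted as unique molecular identifiers (UMIs) in barcoded spots, each a small region holding several cells. Spots over tissue with at least 1000 detected genes were summed per section, and a level is given in CPM, the UMIs of a gene scaled to the total UMIs of that section. A level is a property of 1 gene's probes and is compared here between sections, not between genes. All sections but the EDTA one held 4225805 to 56182915 UMIs in 491 to 2320 spots; the EDTA section kept 15 spots and 37167 UMIs. Intervals given for single sections are 95% exact intervals and cover counting error only. The targeted gene C1qa read 25.8 to 269 CPM in the 4 wild-type sections of the cross and 0.0548 to 0.189 CPM, from 1 or 2 UMIs, in the 4 knockouts. In spots, fewer cells of a type and less RNA per cell cannot be told apart.

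The promoter element of interferon-stimulated genes is shown here because it is the feature the rule for choosing these genes did not use. RefSeq promoters (build GRCm38.p6) were matched by symbol for 7 of the 9 genes, leaving Usp18 and Rtp4, and each run below is the 180 bases before the start of the gene on its own strand, 5′ to 3′. Capitals mark every match to GAAANNGAAA on either strand, overlapping matches included.
Isg15 (chr4:156200819-156200998, minus strand): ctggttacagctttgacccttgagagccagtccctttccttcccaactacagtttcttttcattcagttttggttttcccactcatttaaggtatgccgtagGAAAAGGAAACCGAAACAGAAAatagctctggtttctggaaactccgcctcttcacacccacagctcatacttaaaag
Ifit1 (chr19:34640709-34640888, plus strand): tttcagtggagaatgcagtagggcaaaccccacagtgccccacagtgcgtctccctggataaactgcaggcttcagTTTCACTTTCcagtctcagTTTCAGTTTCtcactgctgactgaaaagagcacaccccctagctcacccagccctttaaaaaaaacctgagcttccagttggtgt
Rsad2 (chr12:26456453-26456632, minus strand): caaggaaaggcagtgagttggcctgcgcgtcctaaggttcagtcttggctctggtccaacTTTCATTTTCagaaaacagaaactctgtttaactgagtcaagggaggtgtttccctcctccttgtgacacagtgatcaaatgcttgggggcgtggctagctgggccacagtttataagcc
Irf7 (chr7:141266425-141266604, minus strand): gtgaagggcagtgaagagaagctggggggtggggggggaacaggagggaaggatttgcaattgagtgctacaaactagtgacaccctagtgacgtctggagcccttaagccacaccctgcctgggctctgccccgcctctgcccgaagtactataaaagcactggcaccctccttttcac
Isg15 held 3 overlapping matches, whose first bases lay from 78 to 66 bases before its start. Ifit1 held 2 that began at 104 and 85 bases, and Rsad2 held 1 that began at 120 bases. Ifit3 and Bst2 held 2 matches each, while Irf7 and Oasl2 held 0 in this window. Of the 7 promoters 5 carried the letters, against 3.44% (1131 of 32851) of all RefSeq promoters in the table, each taken from 250 bases before to 50 after the start. A match is a description of letters and was not tested as a binding site.

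Across the purchased sections, the EDTA one aside, 7 of the 9 interferon-stimulated genes were highest in adult spleen, and all 9 were lower in both fetal livers than in 89-week marrow or adult spleen. The share of all genes with these orders was not taken, so they are not shown to be particular to the set. Against the P8 section the order of the livers varied by gene: Usp18 read 7.62 CPM in E13.5 liver, 4.41 CPM in E14.5 liver and 3.96 CPM at P8, and Bst2, Rtp4 and Ifit3 were also higher in E13.5 liver than at P8. Isg15, a ubiquitin-like protein that is attached to other proteins, read 16.5 CPM (15.3 to 17.9) in E13.5 fetal liver and 4.13 CPM (3.62 to 4.70) in E14.5 fetal liver. The P8 leg section read 63.1 CPM, while marrow at 89 weeks and adult spleen each read 114.8 CPM. The last pair differed by less than their counting intervals, and both stood above the 3 younger sections. The P8 value is of the whole leg, whose markers of bone, cartilage, muscle and nerve summed to 88911 CPM against 213 CPM in the 89-week section. Rsad2, the antiviral enzyme viperin, was ordered differently, with 2.40 and 2.62 CPM in E13.5 and E14.5 fetal liver, 30.4 CPM in adult spleen, 55.1 CPM in the P8 leg and 116.3 CPM in 89-week marrow. Both of the latter exceeded spleen for Rsad2, and spleen exceeded both for Irf7, Oasl2, Usp18, Bst2, Rtp4, Ifit1 and Ifit3.

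Irf7, a transcription factor that drives interferon genes, read 11.2 CPM in E13.5 liver, 5.20 CPM in E14.5 liver, 14.8 CPM in the P8 leg, 55.0 CPM in 89-week marrow and 108.7 CPM in adult spleen. Ifit3, a partner of Ifit1 in a complex that binds foreign RNA, read 24.7 CPM in adult spleen and 0.783 to 2.49 CPM in the other 4 sections. Both Ifit1 and Ifit3 have related neighbours, Ifit1bl1 and Ifit3b, with which their probes may share RNA, so their levels are uncertain. In E14.5 liver 8 of the 9 genes were lower than in E13.5 liver, the exception being Rsad2, and the share of all genes lower there was not taken. With 1 section per stage, none of these differences has a replicate check. Depth, preparation, dissection and age all differed between the sections, and stage cannot be told apart from section. In the EDTA section Isg15 rested on 10 UMIs and Rsad2 on 9, the other 7 genes had 0 to 3 UMIs, and no level is drawn from it.

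**Figure D1:**
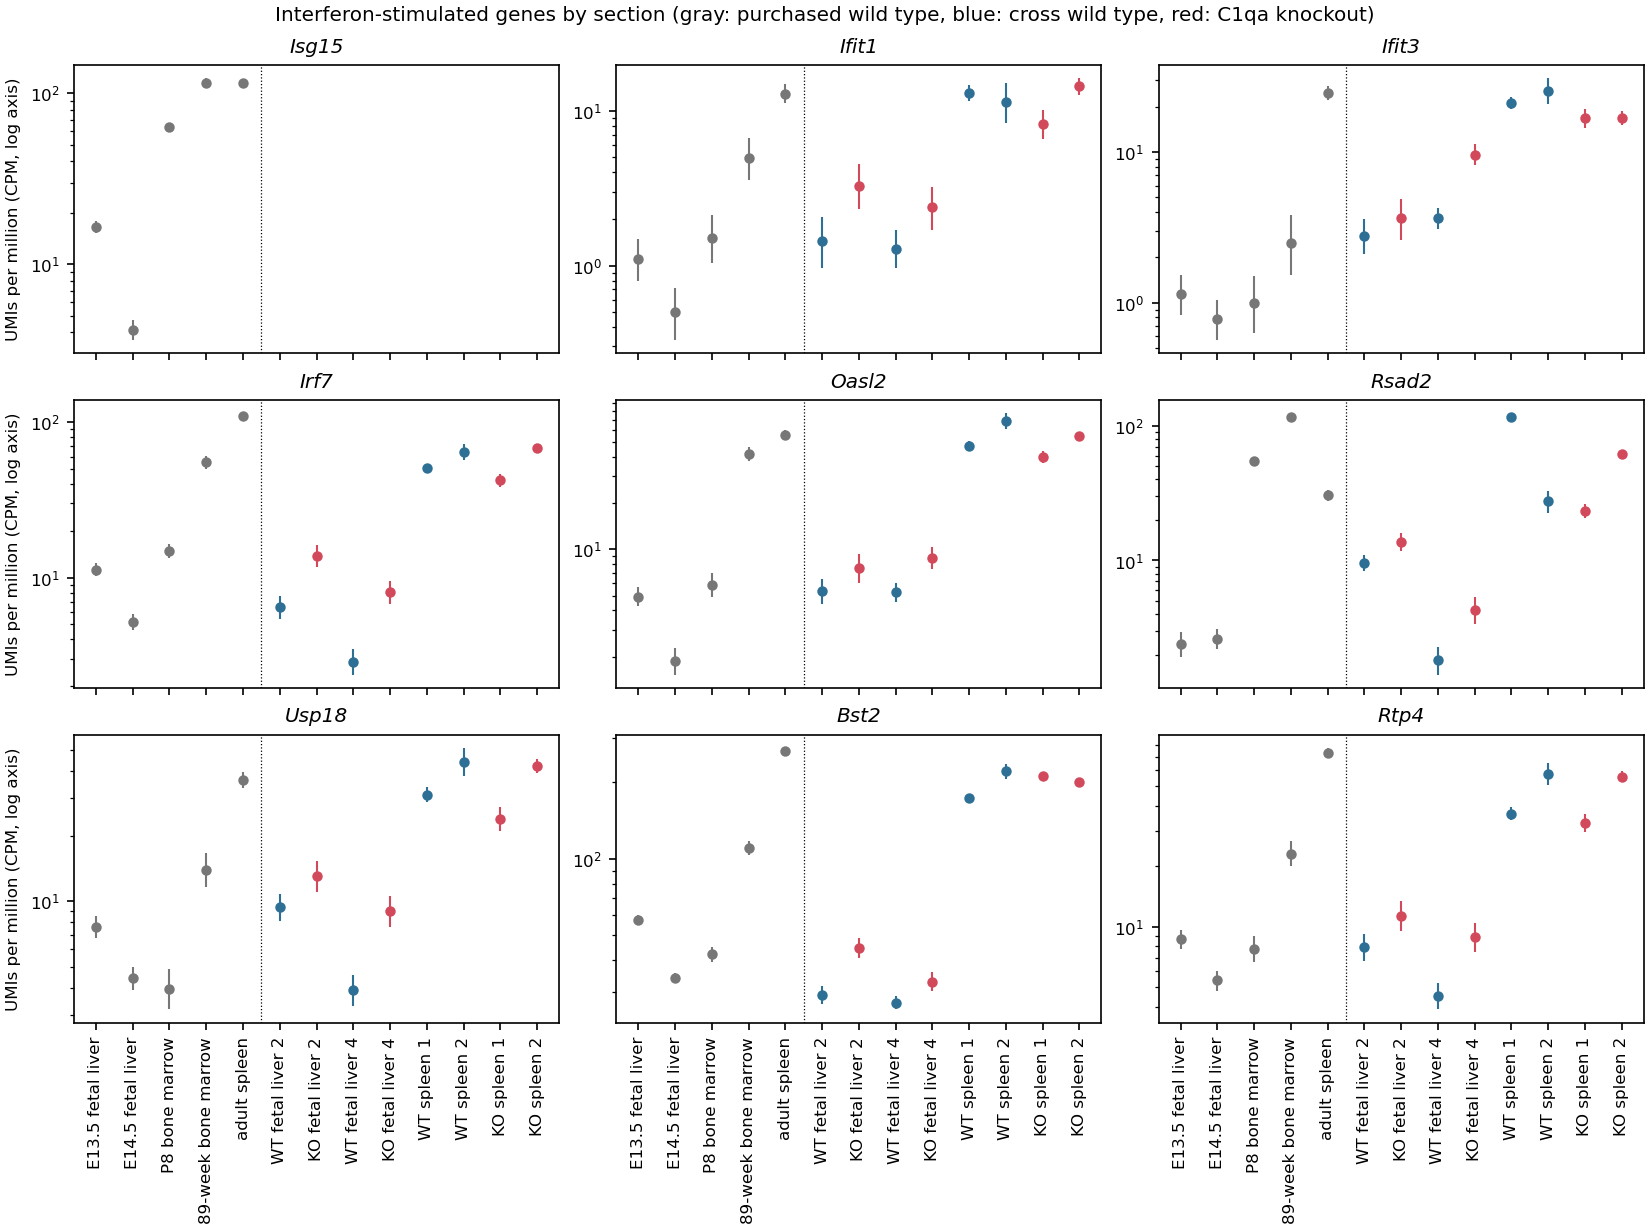
Level of each interferon-stimulated gene in 13 sections, 1 panel per gene, in CPM on a log axis, with bars for 95% exact Poisson intervals (counting error only); gray is purchased wild type, blue cross wild type and red C1qa knockout, and the EDTA section is left out. Isg15 has no cross points, and every gene sits higher in the 4 cross spleens than in the 4 cross fetal livers.

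Within the wild-type mice of the cross, the genes were higher in adult spleen than in E14.5 fetal liver. Oasl2, an oligoadenylate synthetase-like protein, was at 5.34 and 5.25 CPM in livers 2 and 4 of wild-type embryos, and at 47.5 and 68.9 CPM in spleens 1 and 2. Ifit1 read 1.44 and 1.29 CPM in the livers and 13.1 and 11.4 CPM in the spleens. Bst2 (tetherin, which holds budding virus particles on the cell surface) read 29.0 and 27.1 CPM in the livers and 174 and 221 CPM in the spleens. For all 8 genes both spleens lay above both livers, as they did for 57.5% of all genes tested. Background differed: 970 olfactory receptor genes, which these tissues should not express and which were added after values were seen, had higher medians in spleen. These were 5.07 and 3.55 CPM in the spleens and 0.495 and 1.04 CPM in the livers. Ifit1 in liver 4 lay under the 95th percentile of those genes (1.74 CPM) and is read as background. In the spleens Ifit1 exceeded that percentile (9.53 and 8.76 CPM). The part of background in these differences was not tested.

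By edgeR's quasi-likelihood test with Benjamini-Hochberg adjustment over 18986 genes, 5 of the 8 rose in spleen, against 28.1% of all genes that were called higher there and 46.3% called in either direction. These were Oasl2 (log2 fold change 2.44 ± 0.45 SE, adjusted p = 0.0168), Ifit3 (1.91 ± 0.36, 0.0177), Ifit1 (2.18 ± 0.44, 0.0196), Bst2 (1.78 ± 0.42, 0.0269) and Irf7 (2.48 ± 0.72, 0.0461). For Ifit1 the level in wild-type liver 4 is read as background, so its fold change is uncertain. Rtp4, a chaperone that carries receptors to the cell surface, gave 1.80 ± 0.64 with adjusted p = 0.0750 in that test. Rsad2 gave 2.42 ± 1.25 (adjusted p = 0.169) and Usp18, the protease that removes Isg15 and restrains receptor signaling, gave 1.33 ± 0.75 (adjusted p = 0.197). Rsad2 had the widest spread of the 8: 9.60 and 1.82 CPM in the livers and 116.6 and 27.5 CPM in the spleens. The calls, of the 8 and of all genes, depended on single sections. With 1 section left out, all 8 genes stayed higher in spleen. Their median log2 difference was 2.74 without wild-type liver 2, 1.64 without liver 4, 2.01 without spleen 1 and 1.97 without spleen 2. The median of all genes ran from −0.06 to 0.27 in these fits. Tissue and developmental stage cannot be told apart here.

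Other lists of the pathway can be read against the 28.1% of all genes that were called higher in spleen. Of the genes most closely tied to interferon gamma, 16 of 21 rose and 0 fell, with a median log2 difference of 3.01 where the median of all genes tested was 0.04. They included Ciita, the master regulator of MHC class II genes (log2 5.51, adjusted p = 0.0147), and Cxcl10, a chemokine for T cells (3.39, 0.0147). Of 44 other interferon-stimulated genes 23 rose and 1 fell, with a median of 1.72. Of the receptors and transducers 3 of 10 rose, of the nucleic acid sensors 4 of 13 and of the feedback inhibitors 1 of 2, and none fell. Irf9 rose (2.21, adjusted p = 0.0286), and Stat2 gave 1.30 (0.0747). B-cell and T-cell markers, 8 of 8 and 7 of 7 of which rose, moved with the same contrast, the B-cell list from 16.6 to 46.8 CPM in these livers to a range of 4933 to 5729 CPM in these spleens, and their part in the result was not tested.

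In fetal liver, all 8 genes were higher in the C1qa knockout than in its wild-type littermate in both litters, but none passed the test. Irf7 read 6.43 CPM in the wild type and 13.8 CPM in the knockout of litter 2, a ratio of 2.14 (95% interval 1.69 to 2.72). In litter 4 it read 2.88 and 8.03 CPM, a ratio of 2.79 (2.16 to 3.61). The knockouts stood above both wild types for Irf7, Ifit1, Oasl2, Bst2 and Rtp4, while for Ifit3, Rsad2 and Usp18 the groups overlapped. Direction was thus shared by 8 of 8 genes where 41.7% of all genes tested were higher in the knockout of both litters, and 5 of 8 had groups that did not overlap in that direction, against 7.46% of all genes. Ifit1, in both counts, had levels in both sections of litter 4 that are read as background. So did Rsad2, in the count of 8 alone, in the knockout of litter 4. The shares of all genes cover genes of every level and were not matched to the levels of these 8.

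The ratios varied between litters. For Ifit1 the ratio in litter 2 was 2.29 (1.38 to 3.85), from 1.44 and 3.29 CPM. In litter 4 its levels of 1.29 and 2.38 CPM were background and give no ratio. Ifit3 gave 1.31 (0.858 to 1.99), which includes no difference, and 2.65, whose interval did not reach 1. Rsad2 gave 1.43 (1.16 to 1.78) in litter 2, while in litter 4 it read 1.82 CPM in the wild type and a background level of 4.28 CPM in the knockout. Usp18 gave 1.39 and 2.31, Rtp4 gave 1.43 and 1.96, and Oasl2 gave 1.41 and 1.68. Bst2 had the smallest ratio of litter 4, at 1.21 (1.09 to 1.34), beside 1.54 (1.36 to 1.73) in litter 2. Group means were 4.66 ± 2.51 CPM (SD, n = 2) in wild type and 10.9 ± 4.06 CPM in knockout for Irf7, and 28.1 ± 1.34 and 38.7 ± 8.28 CPM for Bst2.

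The edgeR test called 0 of the 8 genes, and 0% of the 18986 genes tested. It did not call the deleted gene C1qa either (log2 −10.25, adjusted p = 0.9998). A lack of calls in this fit, which leaves out litter, is therefore no sign that a gene did not differ. Their log2 fold changes ran from 0.32 ± 0.60 (SE, Bst2) to 1.00 ± 0.88 (Irf7), all with adjusted p = 0.9998; 0 of the 8 and 138 of all genes had an unadjusted p under 0.05, and DESeq2 called 0 of the 8 and 7 of all genes. With litter as a block, edgeR called 157 genes (0.827%), with C1qa among them (log2 −9.64, adjusted p = 2.639e-69) and none of the 8. Irf7 came nearest in that fit, at a log2 fold change of 1.07 ± 0.39 with unadjusted p = 0.00637 and adjusted p = 0.331; the other 7 lay between 0.23 and 0.82 with adjusted p = 0.919. The median of the 8 was 0.63 in the blocked fit, where the median of all genes was 0.01. Leaving out 1 section sets sections of different litters against each other: all 8 genes were then higher in the knockout without wild-type liver 2 (median log2 1.51) or knockout liver 4 (1.04), 4 of 8 without wild-type liver 4 (−0.01) and 2 of 8 without knockout liver 2 (−0.27).

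Section content differed within these 4 livers. Spots with hepatocyte transcripts made up 2190 of 2320 and 2073 of 2147 spots in litter 2 and 237 of 806 and 366 of 589 in litter 4 (wild type, then knockout). Markers of bone, cartilage, muscle and nerve summed to 699 and 691 CPM in litter 2 and 2377 and 1116 CPM in litter 4. In hepatocyte spots alone, with litter as a block, 7 of 8 genes stayed higher in the knockout and Bst2 gave log2 −0.05. Background also differed: 970 olfactory receptor genes, which these tissues should not express and which were added after values were seen, had a median of 0.495 CPM (wild type) and 0.519 CPM (knockout) in litter 2 and of 1.04 CPM and 3.57 CPM in litter 4. Ifit1 lay at or under the 95th percentile of those genes in wild-type liver 4 and knockout liver 4, and Rsad2 did so in knockout liver 4, so those levels are read as background. Their part in the ratios of litter 4 was not tested, while in litter 2, where the background medians were 0.495 and 0.519 CPM, all 8 genes were above that percentile in both sections.

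Elsewhere in the pathway, 0 genes were called in fetal liver. Of the 44 other interferon-stimulated genes 36 had a higher fitted level in knockouts (median log2 0.30) and of the 21 genes tied to interferon gamma 17 did (median 0.39), where the median of all genes was 0.00. Irf9 went from 26.5 CPM in the wild type to 41.1 CPM in the knockout of litter 2 and from 18.4 CPM to 34.8 CPM in litter 4, log2 0.52 ± 0.63, adjusted p = 0.9998. Stat2 gave −0.29 ± 0.60 at the same adjusted p. Both knockouts lay above both wild types for Irf9, but neither Irf9 nor Stat2 passed the test.

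**Figure D2:**
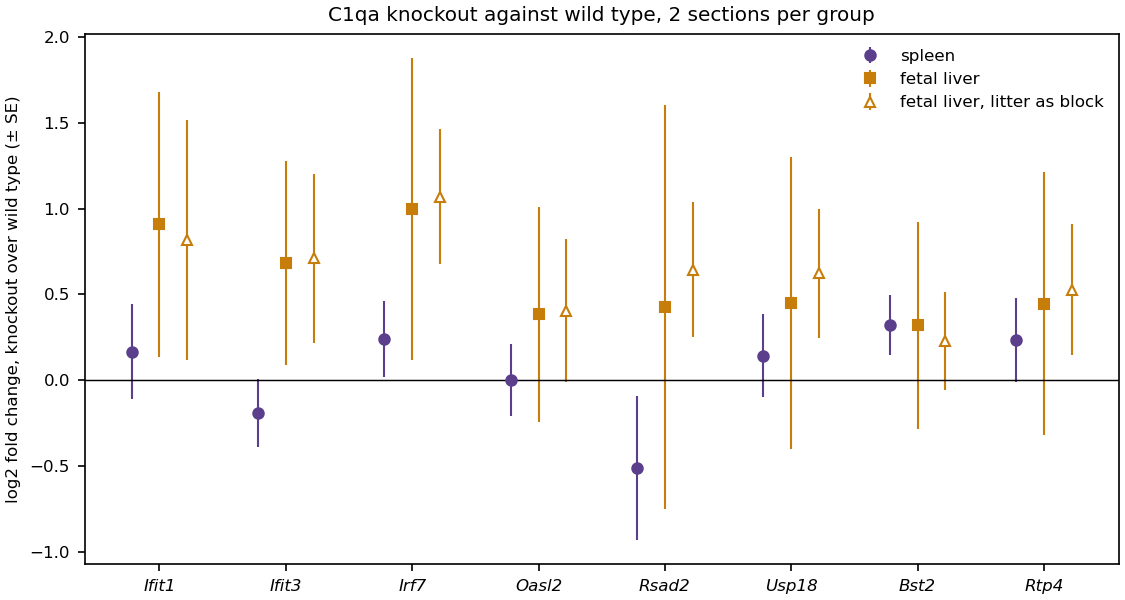
Fitted log2 fold change of 8 interferon-stimulated genes, knockout over wild type, from edgeR, with bars for the standard error and 2 sections per group; circles are spleen, filled squares fetal liver and open triangles fetal liver with litter as a block. All fetal liver points lie above 0 and 5 of their 8 bars reach 0 in the fit without the block, while spleen points lie on both sides of 0 from −0.51 to 0.32.

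In spleen, none of the 8 genes passed the test between genotypes, in a comparison where 20.6% of all 18895 genes tested did. Irf7 was at 50.5 CPM in spleen 1 and 64.6 CPM in spleen 2 of the wild type, beside 42.1 CPM and 68.2 CPM for the knockout. For Usp18 the wild types were at 31.0 and 44.0 CPM, with the knockouts at 24.0 and 42.1 CPM. For Bst2 the wild types were at 174 and 221 CPM, with the knockouts at 211 and 200.3 CPM. For these 3 genes the knockout pair fell within or across the wild-type range. Ifit3, with wild types at 21.2 and 25.6 CPM against knockouts at 16.7 and 16.9 CPM, was the only 1 of the 8 whose groups did not overlap; both knockouts lay below both wild types for 51.5% of all genes.

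Fitted log2 fold changes in spleen ran from −0.51 ± 0.42 SE (Rsad2, adjusted p = 0.357) to 0.32 ± 0.17 (Bst2, adjusted p = 0.170). Ifit3, on the scale of that fit, gave −0.19 ± 0.20 (adjusted p = 0.462), Irf7 0.24 ± 0.22 (0.417), Rtp4 0.24 ± 0.24 (0.466), Ifit1 0.17 ± 0.28 (0.656), Usp18 0.14 ± 0.24 (0.666) and Oasl2 −0.0014 ± 0.21 (0.996). The edgeR test called 0 of the 8, 0 had an unadjusted p under 0.05, and DESeq2 called 0. An interval of 2 SE on each side ran from −0.03 to 0.67 for Bst2 and from −0.42 to 0.42 for Oasl2. With upper-quartile scaling, which moved the median of all genes to −0.37, Rsad2 was called at −0.85 (adjusted p = 0.0161), and Ifit1, Irf7, Usp18 and Rtp4 turned negative.

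The direction of Rsad2 depended on which section was left out. Spleens 1 and 2 held 116.6 and 27.5 CPM in the wild type, against 23.3 and 61.6 CPM in the knockout. Without wild-type spleen 1 the fitted log2 difference was 0.94 with adjusted p = 0.00142, and without wild-type spleen 2 it was −1.16 with adjusted p = 2.08e-09, the opposite direction. Bst2 (0.49, adjusted p = 0.0146) and Rtp4 (0.56, 0.0238) were also called without wild-type spleen 2. The summed level of 8 erythroid markers in the same order was 3701, 1450, 386 and 727 CPM, and all 8 of these markers were lower in the knockout spleens. Neutrophil markers, 8 of 9 of which fell, summed to 641 and 549 CPM in the wild types against 76.6 and 132 CPM in the knockouts. Digestive enzyme transcripts of the pancreas, all 6 of which rose, went from 49.6 and 788 CPM up to 3174 and 21931 CPM. The part of these tissues in the levels was not tested, except that leaving out pancreas spots still called 0 of the 8 genes.

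Other arms of the pathway did pass the test in spleen. Of 21 genes tied to interferon gamma 11 rose in the knockout and 0 fell (median log2 0.61), and of 44 other interferon-stimulated genes 15 rose and 1 fell (median 0.35); 13.8% of all genes tested were called higher and the median of all genes was −0.08. Gbp5, a guanylate-binding protein that attacks intracellular pathogens, rose from 15.0 and 16.8 CPM to 27.8 and 35.2 CPM (log2 1.28 ± 0.20, adjusted p = 0.000368). Ifi203, a nuclear protein of the interferon-inducible p200 family, rose from 56.9 and 49.9 CPM to 85.0 and 108.9 CPM (1.12 ± 0.19, 0.000486). Helz2, a helicase family coactivator, rose from 161.9 and 146.2 CPM to 250.3 and 270.4 CPM (1.02 ± 0.17, 0.000639). The smallest adjusted p-values after these belonged to Sp100, Samd9l, Gbp4, Igtp, Ddx58, Parp14 and Gbp9, all higher, at log2 0.73 to 1.01. Stat2 gave 0.32 ± 0.17 with adjusted p = 0.173, and Irf9 0.21 ± 0.18 (0.371).

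These list counts depended on the fit, the scaling and single sections. A joint fit of the 8 cross sections called 0 of 19180 genes in spleen, with 1373 at an unadjusted p under 0.05, and so none of either list. Without knockout spleen 2, 0 of the 21 and 0 of the 44 genes were called, in a fit that called 240 genes in all. With upper-quartile scaling the counts were 8 higher and 0 lower of 21, and 7 higher and 6 lower of 44. Among all genes the share of calls that were higher in the knockout was 67.0% with TMM scaling, 85.8% with DESeq2 and 21.4% with upper-quartile scaling, and B-cell, T-cell and plasma cell markers were also higher, with 3 of 8, 2 of 7 and 2 of 5 called. The difference between tissues in the knockout effect was tested across all 8 cross sections by the interaction term of the edgeR fit: it called 0% of 19180 genes and 0 of the 8, with 2018 genes and 0 of the 8 at an unadjusted p under 0.05 and 9 genes and 0 of the 8 called by DESeq2. All 8 interaction terms were negative, between −0.94 ± 1.70 (SE, Rsad2) and −0.01 ± 0.70 (Bst2), but without knockout liver 2 they were positive for 7 of 8. With the litter of the livers as a block, and none for the spleens, the term called 1409 genes and again 0 of the 8.

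Within spleen, Rsad2 was concentrated outside the lymphoid areas. Spots of each spleen were ranked by the summed level of B-cell and T-cell markers against red pulp macrophage and erythroid markers, none of them a gene of the set, and cut into 3 equal groups. In the group richest in lymphoid markers Rsad2 read 28.2 and 9.17 CPM for the wild types (spleen 1, then 2) against 5.45 and 10.7 CPM for the knockouts. In the group richest in red pulp markers it read 249, 63.2, 60.8 and 148 CPM in the same order. The red pulp group was 6.89 to 13.8 times the lymphoid group in all 4 cross spleens and 5.13 times (3.97 to 6.68) in the purchased adult spleen. Red pulp is the part of the spleen that filters and recycles red cells and, in mice, makes them.

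With section as a block, the edgeR test called 4 of the 8 genes, all lower in the lymphoid group, against 10.9% of all 18534 genes that were lower there, 10% that were higher and 20.9% in either direction. Rsad2 gave log2 −3.56 ± 0.15 (adjusted p = 1.188e-07), Oasl2 −0.73 ± 0.11 (0.000645), Rtp4 −0.50 ± 0.12 (0.0121) and Irf7 −0.42 ± 0.12 (0.0233). Oasl2 read 37.0, 45.8, 28.6 and 49.1 CPM in the lymphoid group and 49.5, 81.4, 52.7 and 59.2 CPM in the red pulp group. Its direction was the same in every spleen. For Rtp4 the red pulp group was 1.06 to 1.78 times the lymphoid group in the 4 spleens, and for Irf7 it was 1.26 to 1.35 times in 3 spleens but 0.931 times in knockout spleen 2. Ifit3 (−0.30, adjusted p = 0.120), Ifit1 (−0.32, 0.220), Bst2 (0.07, 0.657) and Usp18 (0.02, 0.945) did not pass. Rsad2 and Oasl2 were called in every alternative fit; Irf7 and Rtp4 were lost in DESeq2 (adjusted p = 0.122 and 0.0672) and without knockout spleen 1 (0.0812 and 0.0546), and Irf7 also without wild-type spleen 1 (0.0782) or wild-type spleen 2 (0.0888).

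Isg15 could be placed in the purchased adult spleen alone, where it read 82.9 CPM in the lymphoid group and 152.7 CPM in the red pulp group, a ratio of 1.84 (1.63 to 2.08). Ifit3 there gave 2.15 (1.64 to 2.84), Oasl2 1.91 (1.60 to 2.27) and Usp18 0.983 (0.791 to 1.22). Bst2 gave 1.33 (1.22 to 1.44) in the purchased spleen but 0.780 to 0.921 in the cross spleens, the opposite direction. Usp18 was the gene of the set that neither passed the test in the cross spleens nor had an interval off 1 in the purchased one. The feedback inhibitors Socs1 (log2 0.83, adjusted p = 0.000166) and Socs3 (0.77, 0.000145), which restrain cytokine receptors, were higher in the lymphoid group of the cross spleens, while Irf9 gave 0.17 (0.226) and Stat2 0.05 (0.755). Of 21 genes tied to interferon gamma 10 were higher in the lymphoid group and 4 lower, and of 44 other interferon-stimulated genes 8 were higher and 9 lower. Those lower included Ube2l6 (−2.83, adjusted p = 5.983e-06), which conjugates Isg15 to proteins, Isg20, an RNA exonuclease (−2.18, 6.225e-05), and Ifitm3, which blocks virus entry (−1.29, 2.526e-05).

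**Figure D3:**
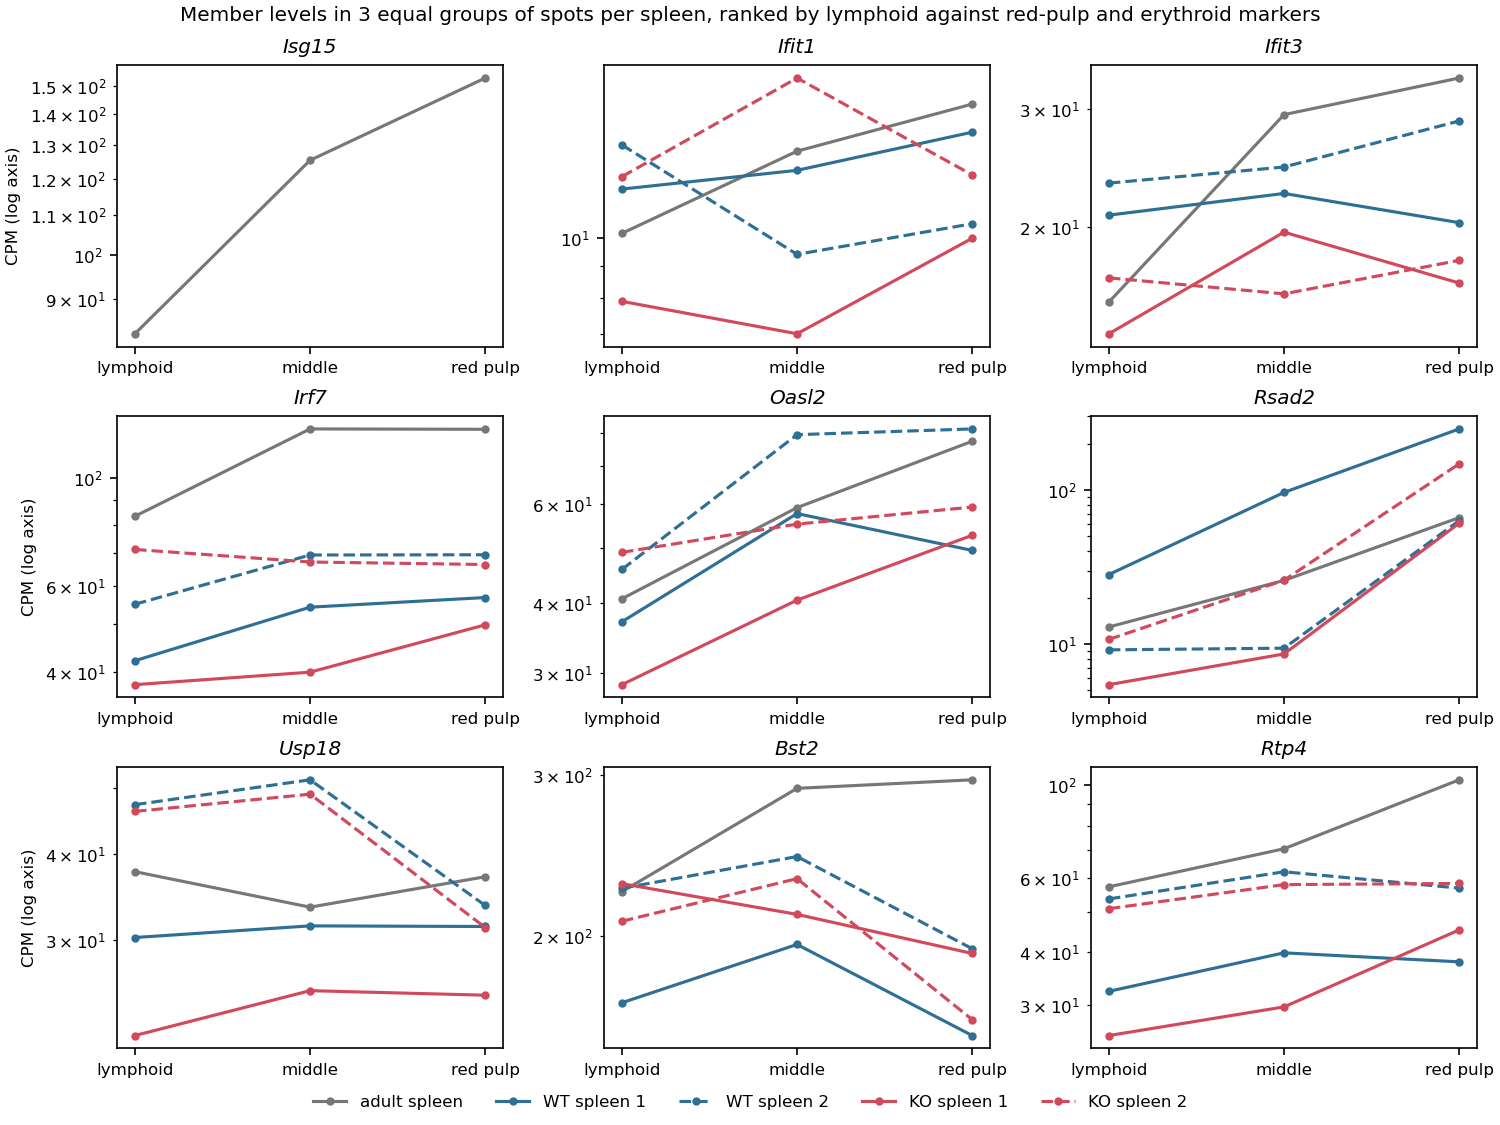
Level of each gene in CPM (log axis) in 3 equal groups of spots of 5 spleens, ranked from richest in lymphoid markers to richest in red pulp and erythroid markers; gray is the purchased adult spleen, blue wild type and red knockout, solid lines spleen 1 and dashed lines spleen 2. Rsad2 climbs steeply in every spleen, Oasl2 rises from the lymphoid to the red pulp group in all of them, and Usp18 shows no common direction.

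Rsad2 also moved with erythroid markers when these were used alone. With spots cut into 3 equal groups, the group highest in erythroid markers held 8.31 to 14.8 times the Rsad2 of the lowest group in the 4 cross spleens and 5.50 times (4.17 to 7.35) in the purchased spleen. In 89-week bone marrow the same ratio was 1.88 (1.59 to 2.24) for Rsad2, 1.56 (1.32 to 1.85) for Isg15 and 1.48 (1.16 to 1.89) for Irf7, whereas spots highest in neutrophil markers had less of all 3 (0.788, 0.759 and 0.672 times). In P8 leg bone, the erythroid ratio was 14.9 (10.7 to 21.1) for Rsad2, 8.21 for Isg15 and 6.44 for Irf7, but the neutrophil ratios were 12.0, 6.68 and 3.79, so the ratios were high for either list. Usp18 had erythroid ratios of 0.637 to 1.12 in the 5 spleens. These are descriptions of spots that each hold several cells and of 1 section each, and do not say which cell held the RNA.

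In knockout spleen 2, 6 of the genes were raised together in patches of adjoining spots. After the spatial values were seen, spots were picked that held at least 10 UMIs of Ifit1, Ifit3, Irf7, Oasl2, Usp18 and Rtp4 together and at least 4 times the number their depth predicted, so these values are a description with no test. This rule picked 35 of the 1371 spots (2.55%) of knockout spleen 2. They lay in 4 patches of 16, 13, 5 and 1 spots, with 34 spots touching another, and held 720 of the section's 4598 UMIs of these genes (15.7%). The patches of 16, 13 and 5 spots held 6.75, 6.55 and 6.38 times the predicted number, and the highest spot had 52 UMIs.

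The other spleens had fewer such spots. Wild-type spleen 1, whose median spot predicted 2.78 UMIs of the 6 genes against 3.06 in knockout spleen 2, had 3 such spots of 1426, none touching. Knockout spleen 1 had 1 of 1291 and wild-type spleen 2 had 0 of 1646, but their median spots predicted 1.29 and 0.624 UMIs, at which the rule could rarely be met. The purchased adult spleen, where the median spot predicted 3.42 UMIs, had 1 patch of 4 spots of 1012, all touching, with 206 UMIs and a highest spot of 75. Fetal liver had a pair of touching spots in knockout 4, 1 spot in knockout 2 and, in E13.5 liver, 2 apart. There were 0 in both cross wild types and the E14.5 purchased liver. Median spots predicted 0.290 and 1.00 UMIs in wild types 2 and 4 and 0.272 and 1.33 in knockouts 2 and 4. In the E14.5 purchased liver the median spot predicted 1.16. At these numbers the rule could rarely be met. The wild-type P8 leg had 1 such spot and 89-week marrow had 3, none touching. The patches of knockout spleen 2 belong to 1 mouse, and genotype cannot be told apart from mouse there. Outside them its levels were 33.8 CPM for Usp18, 10.4 CPM for Ifit1 and 59.4 CPM for Irf7, compared with 42.1, 14.4 and 68.2 CPM over the whole section.

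**Figure D4:**
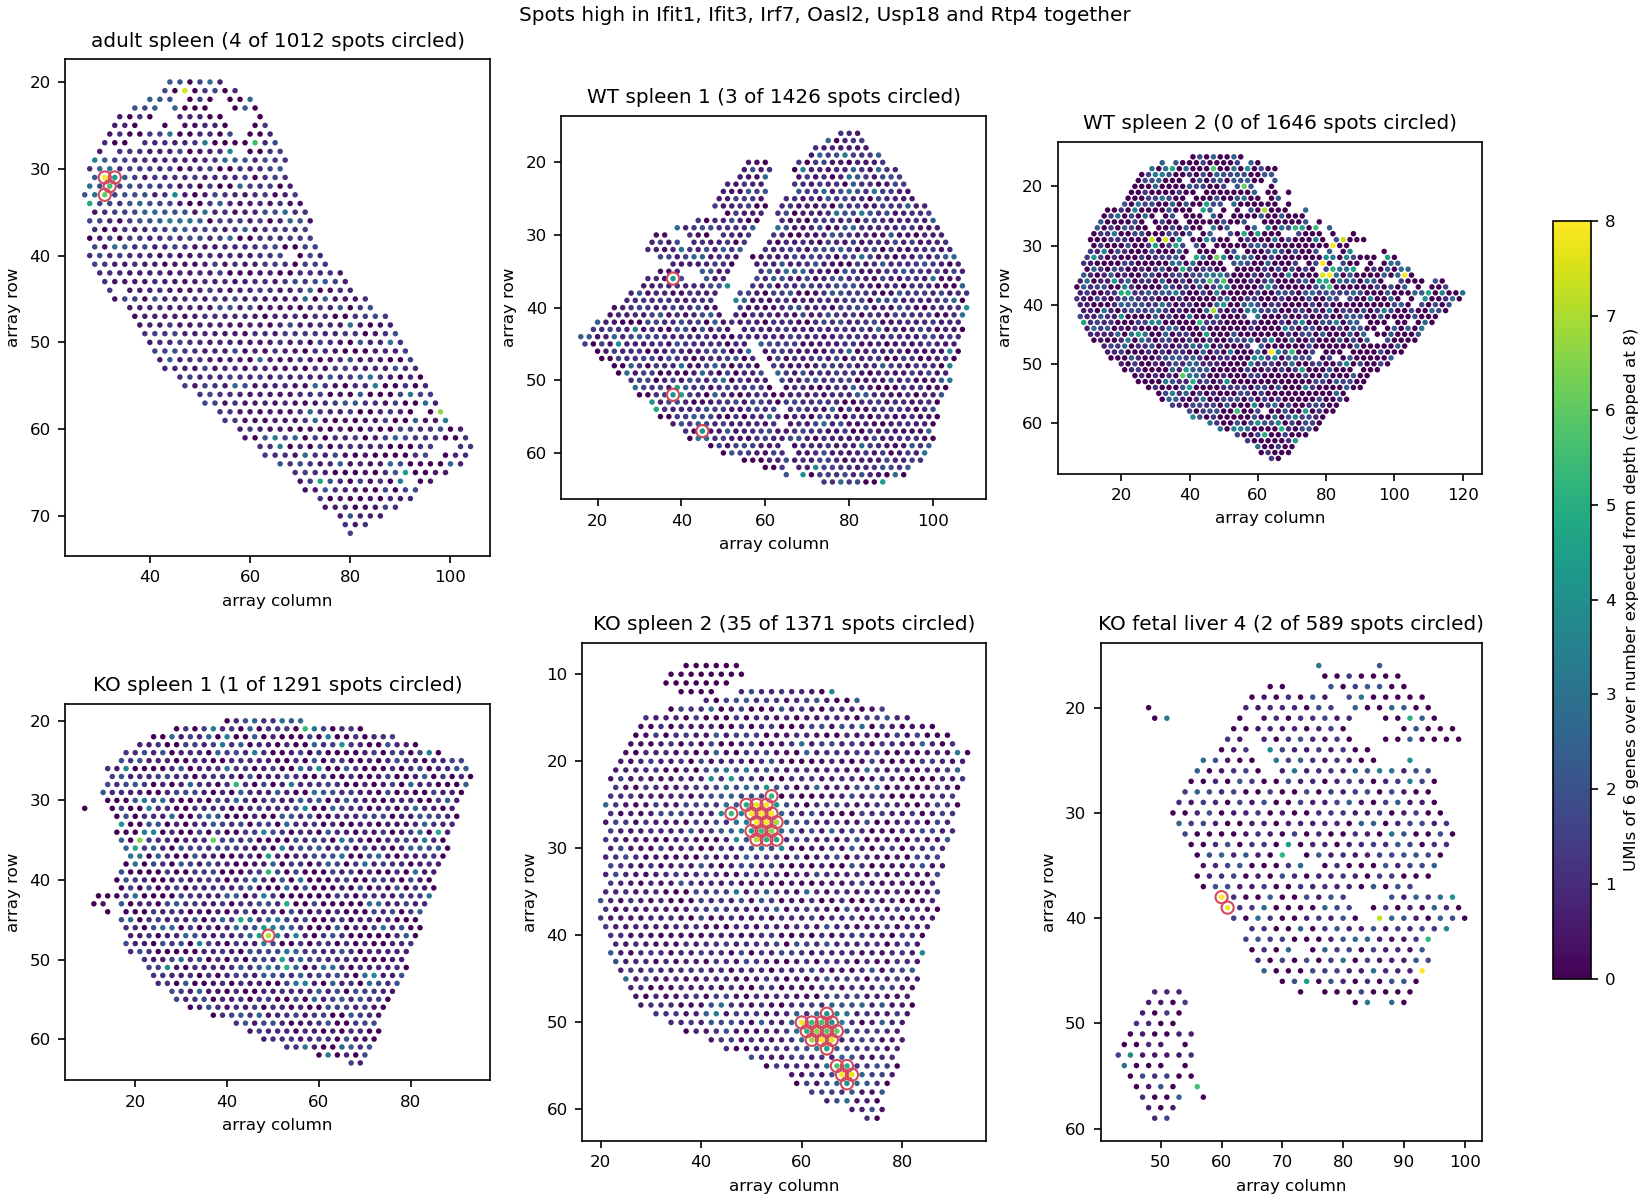
Spots of 6 sections at their array row and column, colored by the UMIs of Ifit1, Ifit3, Irf7, Oasl2, Usp18 and Rtp4 together over the number predicted from spot depth (values above 8 drawn as 8); circles mark spots with at least 10 UMIs and at least 4 times the prediction. The 35 circled spots of knockout spleen 2 form compact patches, the 4 of the adult spleen form 1, and the 3 of wild-type spleen 1 are scattered.

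What else was in the patches was read from genes the picking rule did not use. Among the genes of the set, Bst2 was 2.57 times (2.23 to 2.95) its level in the other spots of knockout spleen 2, and Rsad2 1.51 times (1.07 to 2.07). Both ratios pool patches that differed. In the patch of 16 spots, a spot held 0 to 2 UMIs of Rsad2 and 5 to 14 of Bst2. In the patch of 13 spots, a spot held 0 to 8 UMIs of Rsad2 and 1 to 11 of Bst2. Irf9 was 2.39 times and Stat2 1.89 times its level elsewhere. Summed levels of the other interferon-stimulated genes were 1.94 times and of genes tied to interferon gamma 2.07 times. The ligand list, at 0.909 times (0.597 to 1.33), did not differ within its counting interval. T-cell markers were 2.27 times (2.14 to 2.40) the level elsewhere, B-cell markers 0.603 times, red pulp macrophage markers 0.391 times, erythroid markers 0.174 times and plasmacytoid dendritic cell markers 0.668 times (0.544 to 0.812). Of the 35 spots 17 were in the lymphoid-rich group, 16 in the middle and 2 in the red pulp group.

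Of the 20 genes with the largest ratio among 3520 genes with at least 30 UMIs in the patches, 6 were the genes of the rule, 10 were in the pathway lists and 4 in no list. The 6 ranked high in part because the spots were picked on them. The UMI minimum was counted inside the picked spots, so it favoured genes high there, in this spleen and the purchased one. The ranking is a description and no test. Oas3, which makes the signal that activates RNase L, stood at 7.02 times, Ifit2 at 6.70, Slfn5 at 6.27, the chemokine Cxcl10 at 5.92 and the RNA sensor Ifih1 at 5.25. The 4 outside the lists were Ifit1bl1, Slfn1, Rnf213 and Ifi206, each an interferon-responsive gene or a relative of one. Of these, Ifit1bl1 may share RNA with the probes of Ifit1, a gene of the rule. In the purchased adult spleen the 4 spots were led by Cxcl10 at 26.5 times and Isg15 at 13.6 times (11.5 to 15.9), with Rsad2 at 7.43 times. Their other contents differed from those of knockout spleen 2: marginal zone macrophage markers were 2.39 times and red pulp macrophage markers 1.66 times the level elsewhere, and 3 of the 4 spots were in the red pulp group. Il1b, an inflammatory cytokine, was also among their 20 leading genes, at 5.57 times.

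**Figure D5:**
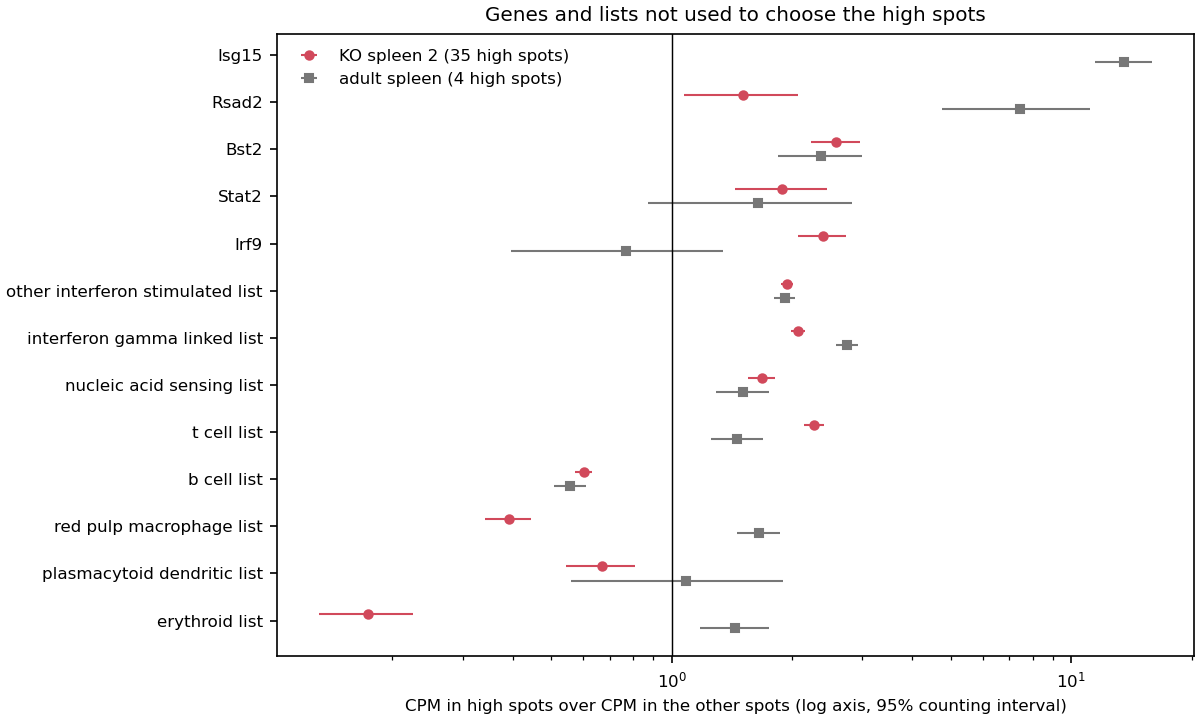
Ratio (log axis) of the level in the high spots to that in all other spots of the same section, for genes and marker lists the picking rule did not use, with 95% exact intervals for counting error; red circles are the 35 spots of knockout spleen 2 and gray squares the 4 of the purchased adult spleen. Both sections sit above 1 for Bst2, Rsad2 and the interferon lists, and on opposite sides of 1 for red pulp macrophage and erythroid markers.

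Across the 8 cross sections the gene set had a common profile set mainly by tissue. On a centered log2(CPM + 1) scale the mean of the 8 genes ran from −1.84 to −0.71 over the 4 livers and from 0.80 to 1.39 over the 4 spleens. Among 13500 genes with a mean of at least 5 CPM, those outside the set closest to this profile were Oas2 (root mean square difference 0.153), Ifi27 (0.158), Clec4a1 (0.200), Oas1a (0.215), Tnfrsf26 (0.222), Apobec1 (0.233), Ifngr1 (0.235), Treml4 (0.248), Apobr (0.260) and Irf9 (0.264). Each gene of the set is part of the mean it was ranked against, which draws it nearer. Of the set itself Rtp4 ranked 3, Ifit1 7, Bst2 13, Usp18 28, Oasl2 30 and Irf7 36, while Ifit3 ranked 498 and Rsad2 1995. Rsad2 was thus the gene of the set furthest from the common profile, and its levels differed most between sections of 1 group. The 8 sections are of 2 tissues, so this likeness is mostly a shared difference between spleen and fetal liver.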

How the data were processed

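The deposited values were raw counts of UMIs per gene and spot, which the authors made with the Space Ranger software from 10x Genomics. The submitters' processing notes name Space Ranger and the mouse build mm10, and the matrix headers give spaceranger 4.0.1 for the 8 cross sections, 2.1.1 for the 89-week and 3.1.2 for the EDTA section, and Cell Ranger 4 for the other 4. Each section has its own matrix. Doublets have no meaning for spots and no caller was run.

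Spots over tissue with at least 1000 detected genes were summed per section. Depth ran from 37167 to 56182915 UMIs, which sets the exact Poisson or binomial 95% intervals (counting error only). A count of 0 allows up to 3 counts. Groups followed the labels. Summed counts were tested with edgeR 4.0.16 (quasi-likelihood F test, TMM scaling, filterByExpr) in R 4.3.3, on the sections of each comparison, with Benjamini-Hochberg adjustment over all genes at 0.05. The standard error was the log2 fold change over the root of F. The fits were also run on simulated data with known changes. The simulated spread between sections (dispersion) was below that estimated for fetal liver (0.263), tissue (0.16) and the interaction (0.146). The simulation therefore does not show how those 3 fits perform. The alternatives were DESeq2 1.42.0, upper-quartile scaling, no count filter, all spots over tissue, other spot groups, a joint fit of the cross sections, a replicate block and leaving out each section. Summaries used python 3.11.15 with scipy 1.17.1.

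Fetal liver numbers 2 and 4 name litters, per the study's supplement, and same-numbered sections deviated together (r = 0.652 over 18986 genes), so litter was also fitted as a block. Same-group sections differed by 21.8 to 668 times sampling noise (chi-square per degree of freedom).

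The 9 genes and all lists were chosen with earlier results of these data known. Pathway genes were named from the 10 with the smallest adjusted p past the threshold in each comparison, with Stat2 and Irf9 always, and like genes were the 10 nearest outside the set. Genes named as leading the patches were chosen after their values were seen. A further gene of the naming rule is not reported here.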

Additional observations from a re-analysis of the deposited data

How the results depend on the processing

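Of 118 levels of the 9 genes, 25 moved by more than their counting interval without hemoglobin genes and 1 with all spots over tissue. In spleen, 3886 genes were called between genotypes, against 1324 in the lymphoid-rich group of spots, 0 in a joint fit of the 8 cross sections and 240 to 4972 with 1 section left out. Of the set 0 were called, but 1 was with upper-quartile scaling and 0 to 3 with 1 section left out. Upper-quartile scaling turned Ifit1 (−0.15), Irf7 (−0.07), Usp18 (−0.16) and Rtp4 (−0.07). Oasl2, near 0, turned to 0.03 in DESeq2, 0.09 and 0.27 in the red pulp and lymphoid groups of spots and 0.01 without pancreas spots. With 1 section left out, the log2 fold changes in spleen ran from −1.51 to 0.94 for Rsad2, −0.46 to 0.53 for Usp18, −0.33 to 0.61 for Rtp4, −0.36 to 0.26 for Oasl2, −0.44 to 0.54 for Ifit1 and −0.28 to 0.59 for Irf7.

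In fetal liver, where 0 genes were called, DESeq2 called 7, hepatocyte spots 1 and leaving out 1 section 0 to 109. Leaving out 1 section gave −1.47 to 2.84 for Rsad2, −0.52 to 1.90 for Usp18, −0.58 to 0.90 for Bst2, −0.39 to 1.52 for Rtp4, −0.16 to 2.35 for Irf7 and −0.06 to 0.91 for Oasl2. The interaction called 9 genes in DESeq2, where Bst2 turned to 0.04, and 0 to 2 with 1 section left out, with terms of −1.73 to 0.59 for Usp18, −0.57 to 0.88 for Bst2, −1.26 to 0.56 for Rtp4, −1.36 to 0.12 for Ifit1, −2.06 to 0.34 for Irf7, −0.88 to 0.02 for Oasl2 and −3.25 to 0.94 for Rsad2. With 1 section left out, tissue calls ran from 0 to 14008 (0 to 8 of the set) and zone calls from 2279 to 3806 (2 to 4 of the set; Usp18 −0.13 to 0.21). DESeq2 called 2 of the set by zone, and a zone score without erythroid markers, chosen after seeing the data, gave Bst2 0.00. A lone section left in a group was assumed to vary like the others. The cause of these shifts was not tested, beyond the smaller number of sections where 1 was left out.

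With a replicate block, fetal liver called 157 genes (27 in hepatocyte spots, where Bst2 turned to −0.05; 82 in DESeq2; 170 in the joint fit), and the interaction called 1409, with Bst2 at 0.09. The blocked fits other than the first and the interaction were chosen after seeing the data. The joint fit with the replicate block called 1247 genes in spleen. In the joint and interaction fits the block was the litter of the livers alone, with none for the spleens. Spleen numbers share only a number (r = 0.0394 over 18895 genes), and a block on them called 4968. No block changed the call of a gene of the set.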

Other observations

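Probes for the interferon ligands themselves read near the level of genes that these tissues should not express. In fetal liver the ligand list summed to 17.5 CPM (wild type) and 18.4 CPM (knockout) in litter 2, then to 33.4 CPM and 94.4 CPM in litter 4. In spleen the wild types were at 149 and 146 CPM, with the knockouts at 100.4 and 68.1 CPM. Of 17 ligands tested in spleen 3 fell in the knockout (Ifna11, Ifna5 and Ifnl3), with a median log2 difference of −0.59. Of all 18895 genes tested 1283 were called lower, and the median of all genes was −0.08. The median of 970 olfactory receptor genes over the same spleens was 5.07, 3.55, 3.40 and 2.36 CPM, lower in the knockouts as well.

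Of 13 nucleic acid sensors, edgeR called 5 higher in the knockout spleens (Aim2, Ddx58, Tbk1, Tlr3 and Tlr7) and 0 lower, where 13.8% of all genes were called higher; the joint fit of the 8 cross sections called none. The feedback inhibitors Socs1 and Socs3 were not called there. Of 5 plasmacytoid dendritic cell markers 2 were called higher, Siglech (1.66-fold) and Klk1 (14.5-fold). Klk1, which glands also express, rose from 8.63 and 16.3 CPM to 32.2 and 233.8 CPM beside the pancreas transcripts, and their part in it was not tested.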
